A study of Mus musculus with 24 samples.

Results

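The tripartite motif (TRIM) family was examined across ATAC-seq peak lists of mouse bone marrow derived macrophages. Members were the mm10 RefSeq protein-coding genes whose symbol is Trim followed by a digit, which gave 68 of 21883 genes. A peak belonged to a member when its summit had that gene as the nearest protein-coding gene body, at most 50 kb away. This rule took 3451 of the 1274891 peaks. Peaks of different libraries that overlapped by at least 1 bp were merged into regions, and those that at least 2 libraries shared were used, which gave the family 212 of 80598 regions.

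TRIM proteins carry a RING finger, 1 or more B-box domains and a coiled coil, followed by a variable carboxy-terminal domain. Most act as E3 ubiquitin ligases, and many attach ubiquitin, SUMO or ISG15 to components of antiviral and inflammatory signalling. In macrophages, interferons are known to induce a subset of the family, above all the members with a carboxy-terminal SPRY domain, and several others tune signalling from RIG-I, MAVS, STING and the Toll-like receptors. ATAC-seq marks DNA that the transposase Tn5 can reach, so a peak is a stretch of accessible chromatin and says nothing by itself about transcription of the gene beside it.

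The macrophages came from male C57Bl/6 mice, either untreated wild-type controls or mice made diabetic with streptozotocin, a toxin of the pancreatic beta cell. Cells of each mouse were divided into an unstimulated portion and a portion given 100 ng/mL lipopolysaccharide (LPS) with 10 ng/mL interferon gamma (IFNγ). The 4 groups, unstimulated control, unstimulated diabetic, stimulated control and stimulated diabetic, held 6 libraries each, from 6 mice per phenotype. Mouse age and the length of this stimulation were not given in the sources used here, and streptozotocin diabetes is a chemical model without a genetic lesion.

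The lists held 41385 to 61861 peaks per library, and no read counts, so the sequencing depth behind a peak is unknown. Stimulated control libraries had the shortest lists, with 47268 ± 4535 peaks (SD, n = 6), against 55990 ± 3486 for unstimulated control, 55522 ± 4925 for unstimulated diabetic and 53703 ± 4511 for stimulated diabetic libraries. Without stimulation, family peaks numbered 147.5 ± 9.95 per control library and 142.7 ± 14.6 per diabetic library (SD, n = 6 each). With stimulation they numbered 136.3 ± 16.3 and 148.7 ± 13.9. Per 1000 peaks of a library they numbered 2.635 ± 0.0748 in unstimulated and 2.88 ± 0.152 in stimulated control libraries, and 2.567 ± 0.0603 and 2.768 ± 0.0948 in the diabetic ones. Of 8 macrophage markers all 8 had a peak and 7 had one in all 24 libraries, and their peaks summed to 38 to 48 per unstimulated library and 27 to 44 per stimulated library. Markers of other cells also had peaks, in 5 of 7 neutrophil genes (2 to 8 peaks per library in sum), 3 of 5 T cell genes (2 to 5), 3 of 4 B cell genes (0 to 5), 4 of 4 erythroid genes (2 to 6) and 4 of 4 stromal genes (4 to 13). The neutrophil genes Elane and Ly6g, the T cell genes Cd3g and Cd8a and the B cell gene Cd79a had none.

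Most of the family lay beside chromatin that was accessible in some or all of the libraries. A region was assigned to 57 of the 68 members, and 40 members had at least 1 region found in all 24 libraries. No library had a peak assigned to Trim5, Trim10, Trim30b, Trim34b, Trim43a, Trim43b, Trim54, Trim60, Trim61 or Trim75. This set of 10 includes the muscle gene Trim54, the erythroid gene Trim10 and members of multigene clusters with close copies. Such members include Trim5, Trim30b, Trim34b, Trim43a and Trim43b. Trim32 had scattered peaks in 6 libraries that formed no region. Trim2, which encodes a neuronal ubiquitin ligase for neurofilament light chain, had the most regions of any member, 16, of which 7 were found in all 24 libraries.

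**Figure D1:**
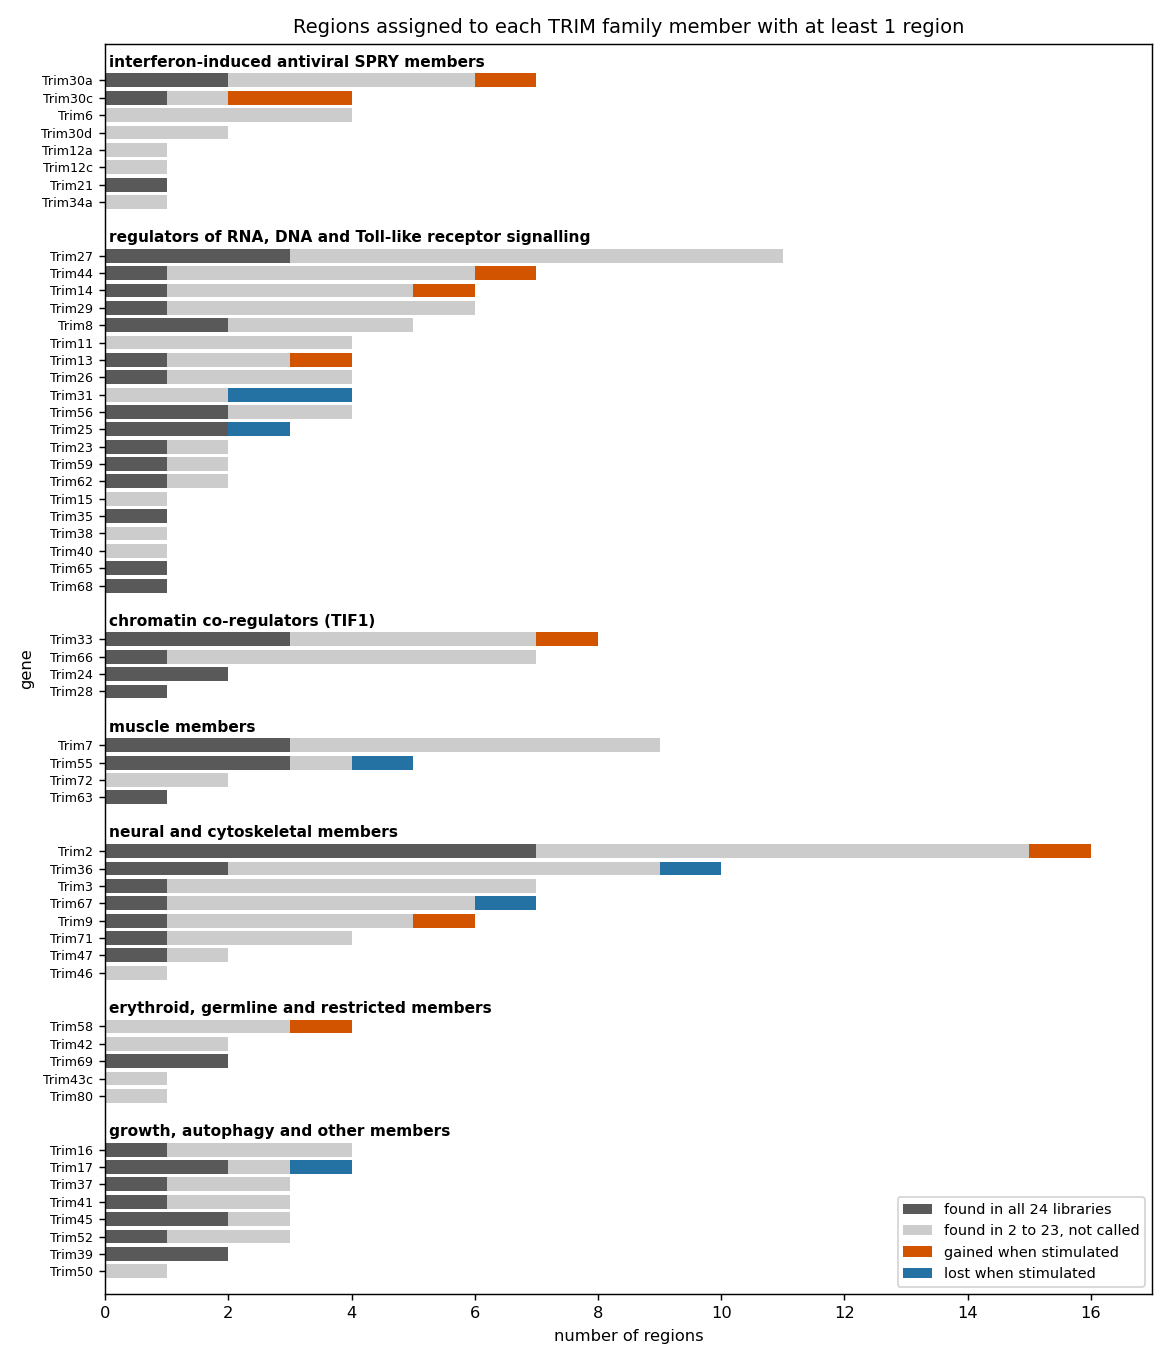
Number of accessible regions (horizontal axis) assigned to each of the 57 members that had one (vertical axis), grouped by role, with shading for regions found in all 24 libraries, regions found in fewer libraries without a call, and regions gained or lost on stimulation. Trim2 has 16 regions, and 17 regions in 15 genes carry a call.

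Regions at gene starts were found in all 24 libraries more often than the other regions, as across all genes. A listed RefSeq start exists here for 53 members, and 41 family regions lay within 1 kb of one. Of these 41, a total of 26 (63.4%) were found in all 24 libraries, against 38 of the 171 other regions (22.2%), and both shares were near those of all genes (67.3% and 22.1%). Regions at starts were also wider, with a median of 772 bp against 401 bp elsewhere. The start of Trim24, a nuclear receptor co-regulator also called TIF1α, lay in a region at chr6:37870332-37871578 whose peaks ranked at a median percentile of 99.3 to 99.6 of their lists by the authors' −log10 q-value in the 4 groups. The start region of Trim28, the KAP1 co-repressor recruited by KRAB zinc finger proteins, at chr7:13023880-13025185 was likewise found in every library. Its summit also lies within the predicted gene Gm31649.

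Other starts found in all 24 libraries served genes of quite different roles. They included Trim21, the cytosolic receptor for antibody-coated virus (chr7:102565003-102565801), Trim23, which carries a GTPase domain (chr13:104177934-104179379), Trim26 (chr17:36836778-36837564) and Trim27 (chr13:21179502-21181258). Trim7, named as a partner of glycogenin, had one at chr11:48837304-48838760, and Trim47 had one at chr11:116109477-116111002. Trim37, mutated in mulibrey nanism, had its start region at chr11:87126732-87127711, Trim39 at chr17:36270849-36272041 and Trim41 at chr11:48816769-48817677.

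Stimulation was compared by asking, for each region, in how many of the 12 stimulated and 12 unstimulated libraries a peak was found (two-sided Fisher's exact test, Benjamini-Hochberg adjustment over the 31219 regions of the genome that could reach an unadjusted p under 0.05). A total of 79 family regions, those found in 5 to 19 libraries, could be tested. Of these, 10 were gained (12.7%) and 7 were lost (8.86%). Across all tested regions 9.19% were gained and 18.9% were lost. The median difference was -1 library for tested family regions and -2 for all tested regions. The calls fell in 15 genes, 9 with gained and 6 with lost regions, and no gene had both. Of the 17 called regions 13 lay inside a gene body, as did 109 of all 212 family regions. A lost region of Trim67 was the 1 call within 1 kb of a listed start. Of the 41 family regions there, 26 were found in all 24 libraries and could not be tested. Among the regions of all genes grouped by place, 97 of 2420 gained and 145 of 5005 lost regions lay at a listed start. Stimulated control libraries had the shortest lists, so the comparison was repeated with the top 41385 peaks of each library: 13 of 59 tested family regions were then gained and 5 lost, against 13.2% and 16% of all 24014 tested regions.

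**Figure D2:**
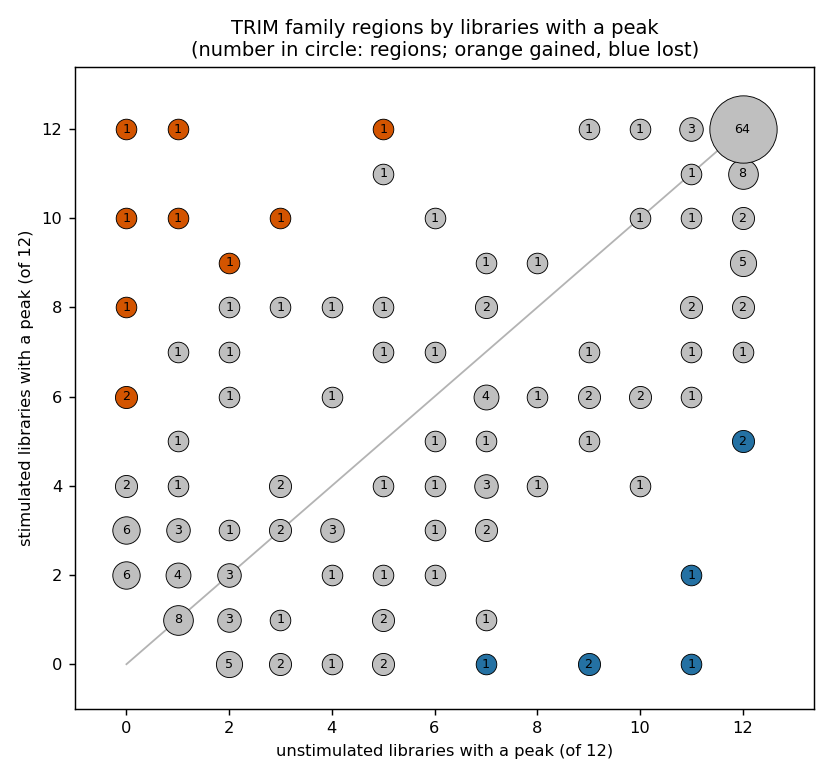
Each circle stands for family regions with the same number of unstimulated (horizontal) and stimulated (vertical) libraries with a peak, and carries their number. The 64 regions found in all 24 libraries sit at the upper right, the 10 gained regions at the upper and middle left, and the 7 lost regions at the lower right.

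**Figure D3:**
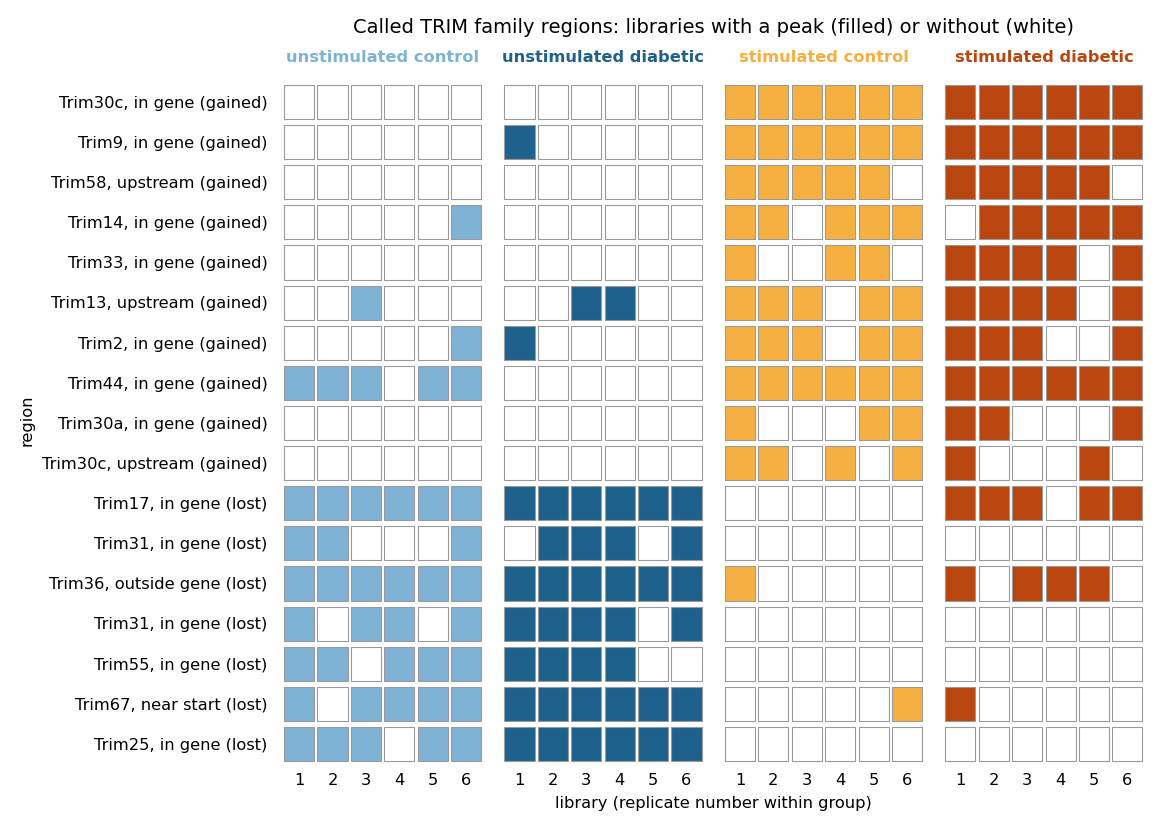
Presence of a peak (filled square) in each of the 24 libraries (columns, by group and replicate number) for the 17 regions called gained or lost (rows). The top Trim30c row is filled in all 12 stimulated libraries and in none of the unstimulated ones, and the Trim25 row is filled in 11 unstimulated libraries and in none of the stimulated ones.

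Among the interferon-induced SPRY members, 3 of 6 tested regions were gained and none was lost, against 9.19% and 18.9% of all tested regions. These 3 calls belong to Trim30c and Trim30a, and those of the second Trim30c region and of the Trim30a region held under 2 of 7 other settings. Trim30a is known as an interferon-inducible inhibitor of Toll-like receptor signalling that acts on TAB2 and TAB3. Both genes lie in a cluster of 10 members on chr7:104218795-104507853 (289 kb), which also holds Trim5, Trim6, Trim12a, Trim12c, Trim30b, Trim30d, Trim34a and Trim34b. The cluster had 20 regions, and 3 of them were found in all 24 libraries. Many of these genes are close copies of each other, and reads that fit several copies may have been placed or dropped by the authors' alignment, so the assignment to a single copy is uncertain.

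Shown are starts of Trim26 and of the cluster genes Trim5, Trim12c, Trim30a, Trim30c and Trim30d. They hold the interferon-stimulated response element (ISRE) or the gamma-activated site (GAS). The ISRE is a motif read by interferon regulatory factors, and the GAS a motif of genes that answer IFNγ. The other listed start of Trim30a and those of the other cluster genes held neither. Each line gives the 250 bases before a RefSeq start (GRCm38.p6, 5′ to 3′ on the gene's strand), with the match in capitals. The ISRE was searched on both strands as GAAA, any 2 bases and GAAA, and the GAS as TTCNNNGAA.
Trim30a, chr7:104465194-104465443, minus strand, ISRE: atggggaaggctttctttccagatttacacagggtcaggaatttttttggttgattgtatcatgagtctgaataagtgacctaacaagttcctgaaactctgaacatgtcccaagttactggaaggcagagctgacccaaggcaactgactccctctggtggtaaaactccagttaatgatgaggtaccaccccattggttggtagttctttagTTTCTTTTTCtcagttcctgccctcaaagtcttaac
Trim30d, chr7:104507850-104508099, minus strand, ISRE: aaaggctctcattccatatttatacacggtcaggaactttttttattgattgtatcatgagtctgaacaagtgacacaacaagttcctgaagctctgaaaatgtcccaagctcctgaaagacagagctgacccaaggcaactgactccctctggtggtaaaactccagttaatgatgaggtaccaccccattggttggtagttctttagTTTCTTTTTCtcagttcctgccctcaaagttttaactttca
Trim12c, chr7:104353350-104353599, minus strand, ISRE: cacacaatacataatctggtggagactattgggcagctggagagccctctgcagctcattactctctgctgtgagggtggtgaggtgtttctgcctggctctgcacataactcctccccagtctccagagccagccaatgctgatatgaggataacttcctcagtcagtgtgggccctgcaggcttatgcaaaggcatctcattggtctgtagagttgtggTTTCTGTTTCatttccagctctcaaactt
Trim5, chr7:104288107-104288356, minus strand, ISRE: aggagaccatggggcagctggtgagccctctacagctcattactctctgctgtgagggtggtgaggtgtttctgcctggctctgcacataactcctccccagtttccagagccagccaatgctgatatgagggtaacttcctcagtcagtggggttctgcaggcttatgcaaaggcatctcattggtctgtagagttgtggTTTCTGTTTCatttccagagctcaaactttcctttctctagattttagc
Trim30c, chr7:104400779-104401028, minus strand, GAS: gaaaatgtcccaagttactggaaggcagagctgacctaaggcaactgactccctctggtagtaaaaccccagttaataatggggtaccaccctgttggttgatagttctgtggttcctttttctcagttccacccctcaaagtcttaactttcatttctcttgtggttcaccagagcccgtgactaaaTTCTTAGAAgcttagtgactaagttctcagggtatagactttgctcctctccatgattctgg
Trim26, chr17:36836896-36837145, plus strand, ISRE: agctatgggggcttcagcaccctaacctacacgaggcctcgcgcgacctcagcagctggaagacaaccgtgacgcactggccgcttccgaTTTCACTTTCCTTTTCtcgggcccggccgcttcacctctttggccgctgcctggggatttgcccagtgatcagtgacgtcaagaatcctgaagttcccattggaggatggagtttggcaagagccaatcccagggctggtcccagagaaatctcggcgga

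In all these ISRE windows the match was on the strand opposite to the gene, so it reads in the reverse complement. The match lay 36 to 27 bases before the start in Trim30a, 41 to 32 in Trim30d, 29 to 20 in Trim12c and 49 to 40 in Trim5. In Trim26 a pair of overlapping matches covered bases 160 to 145 before the start. The Trim30a and Trim30d windows were 89% identical over their alignment, and the Trim5 and Trim12c windows 81.5%, while Trim5 and Trim30a were 51.9% identical. The ISRE was found in 5 of the 67 listed member windows (7.46%) and in 2.98% of all 32851 windows.

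Other motifs were searched on both strands in the same 67 windows. The GAS occurred in 6 member windows (8.96%, against 7.02% of all windows), which belong to Trim15, Trim30c, Trim31, Trim45 and Trim46. The Trim15 windows overlap and share a single match, which is counted in each of them. The AP-1 site TGANTCA occurred in 5 (7.46% against 6.75%), the PU.1 site GAGGAAGT in 5 (7.46% against 2.44%) and the κB site, searched as GGGA, any base and TTTCC, in none (0.356% of all windows). The PU.1 windows belong to Trim2, Trim24 and the cluster members Trim5, Trim12a and Trim12c. Windows of these cluster members are related: Trim5 and Trim12c were 81.5%, Trim12a and Trim12c 69.3% and Trim5 and Trim12a 61.8% identical. No matches of different motifs overlapped in a member window. The ISRE windows of Trim30a and Trim26 overlapped regions found in all 24 libraries. For Trim30d the overlapping region was found in 23 libraries and for Trim12c in 21, and the Trim5 window overlapped no region. A match is a string of letters and was not tested for binding.

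The called regions of Trim30c lay away from its start. The start region, chr7:104400506-104401071, was found in all 24 libraries, so a change there could not be tested by presence. Its median fold enrichment (ratio over background) was 11.1 in unstimulated control and 8.38 in unstimulated diabetic libraries. In stimulated control and stimulated diabetic libraries it was 7.34 and 7.67, a difference that was not tested. By −log10 q-value its peaks ranked at a median percentile of 76.9 in unstimulated control and 61 in unstimulated diabetic lists. In stimulated control and stimulated diabetic lists they ranked at 72.9 and 72.3. Inside the gene, 17102 bp from the start, the region chr7:104383429-104383960 was found in 6 of 6 stimulated control and 6 of 6 stimulated diabetic libraries and in none of the 12 unstimulated libraries, so that the groups did not overlap (Fisher's exact test, adjusted p = 6.17e-05). It was also called within control mice (exact test, adjusted p = 0.0173) and within diabetic mice (exact test, adjusted p = 0.0243). Another Trim30c region, chr7:104404393-104404663, lay 3658 bp upstream of the gene and was found in 4 stimulated control, 2 stimulated diabetic and no unstimulated libraries (exact test, adjusted p = 0.0489).

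Trim30a showed the same kind of pattern in smaller counts. Both of its listed starts lay within 1 kb of the summit of a region found in all 24 libraries, chr7:104445521-104446514 and chr7:104465223-104465815. Between them, 1044 bp from the upstream start, the region chr7:104463937-104464547 was found in 3 stimulated control, 3 stimulated diabetic and no unstimulated libraries (exact test, adjusted p = 0.0489). In all, 4 of the 7 Trim30a regions were found only in stimulated libraries, in 3 to 6 of them each, and the other 3 of these 4 were found in too few libraries to be tested. In the whole family, 19 of 212 regions were found in no unstimulated library and 14 in no stimulated library. The same shares over all regions of the genome are not given here. The Trim30a call and that of the upstream Trim30c region were lost with peaks of −log10 q of at least 5, with lists of equal length and in most of the analyses that left out 1 library.

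The other SPRY members had no call. The Trim34a start region, chr7:104244399-104245170, was found in 5 unstimulated control, 5 unstimulated diabetic and all 12 stimulated libraries. For Trim12c, chr7:104353222-104353888 was found in all libraries of every group but stimulated control, where it was found in 3 of 6. The start regions of Trim6 and Trim30d were each missing from 1 stimulated diabetic library. Trim12a had a single region, found in 3, 5, 4 and 5 libraries of the unstimulated control, unstimulated diabetic, stimulated control and stimulated diabetic groups.

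**Figure D4:**
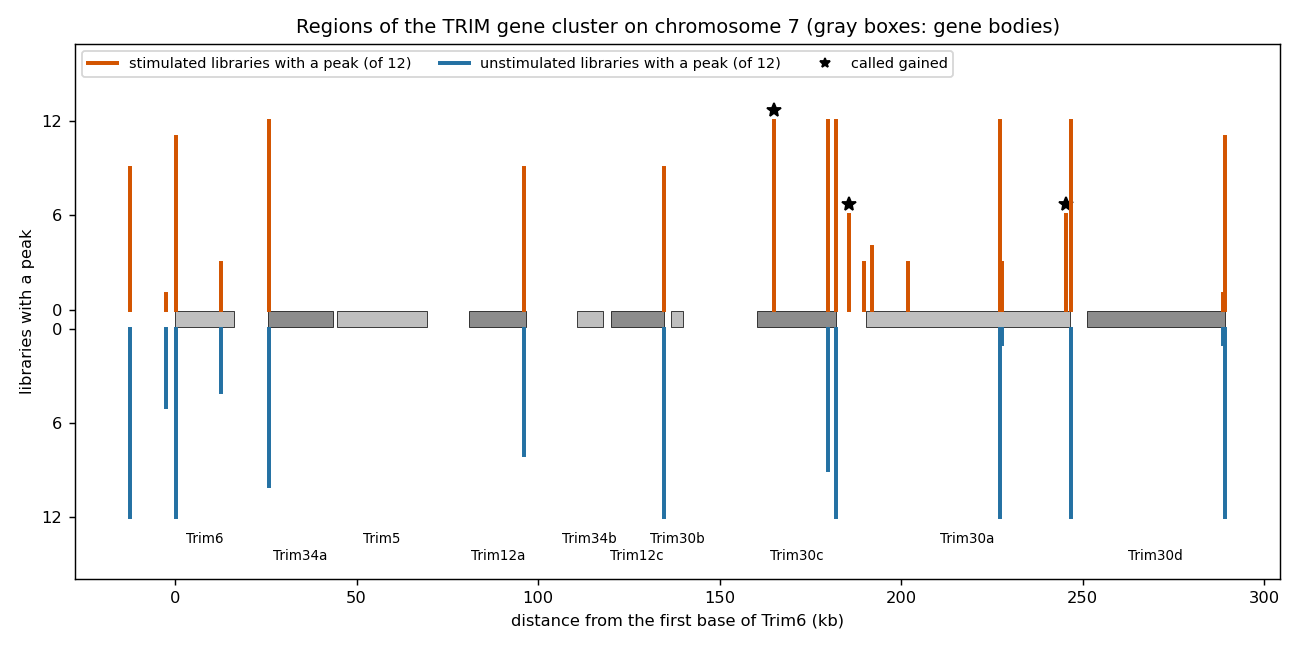
Regions of the chromosome 7 cluster by distance from the first base of Trim6 in kb (horizontal axis), with the number of stimulated libraries with a peak drawn upwards and of unstimulated libraries downwards (12 each), and gray boxes for gene bodies. Stars mark the 3 gained regions, which lie in or near Trim30c and Trim30a at the right of the map, and Trim5, Trim34b and Trim30b carry no bar.

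The number of peaks assigned to each gene gave a second measure. It was compared by an exact permutation test of the stimulated against the unstimulated sum, with labels exchanged within each phenotype and p-values adjusted over 16370 genes. Of the 58 members tested, 2 had more peaks (3.45%) and 4 had fewer (6.9%), against 1.91% and 6.83% of all genes, and 12 members (20.7%) had an unadjusted p under 0.05, the same share as among all genes (20.7%). A gene's peaks include those of its called regions, so this is not independent of the region calls. Trim30c rose from 1 or 2 peaks in every unstimulated library to 3 or 4 in every stimulated one, a mean of 1.75 against 3.5 (exact permutation test, adjusted p = 0.00153), with no overlap between the states.

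Trim30a rose from a mean of 2.33 to 4.58 peaks (exact permutation test, adjusted p = 0.00824). Its unstimulated libraries had 2 to 4 peaks. The stimulated control libraries had 4, 5, 3, 4, 5 and 4, and the stimulated diabetic libraries 10, 3, 5, 3, 3 and 6. The stimulated diabetic library with 10 was the highest, and the stimulated mean without it was 4.09. Trim58 and Trim14 came next, with means of 1.33 against 2.5 (exact permutation test, adjusted p = 0.0508) and 3.42 against 4.67 (exact permutation test, adjusted p = 0.0557), and did not pass.

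**Figure D5:**
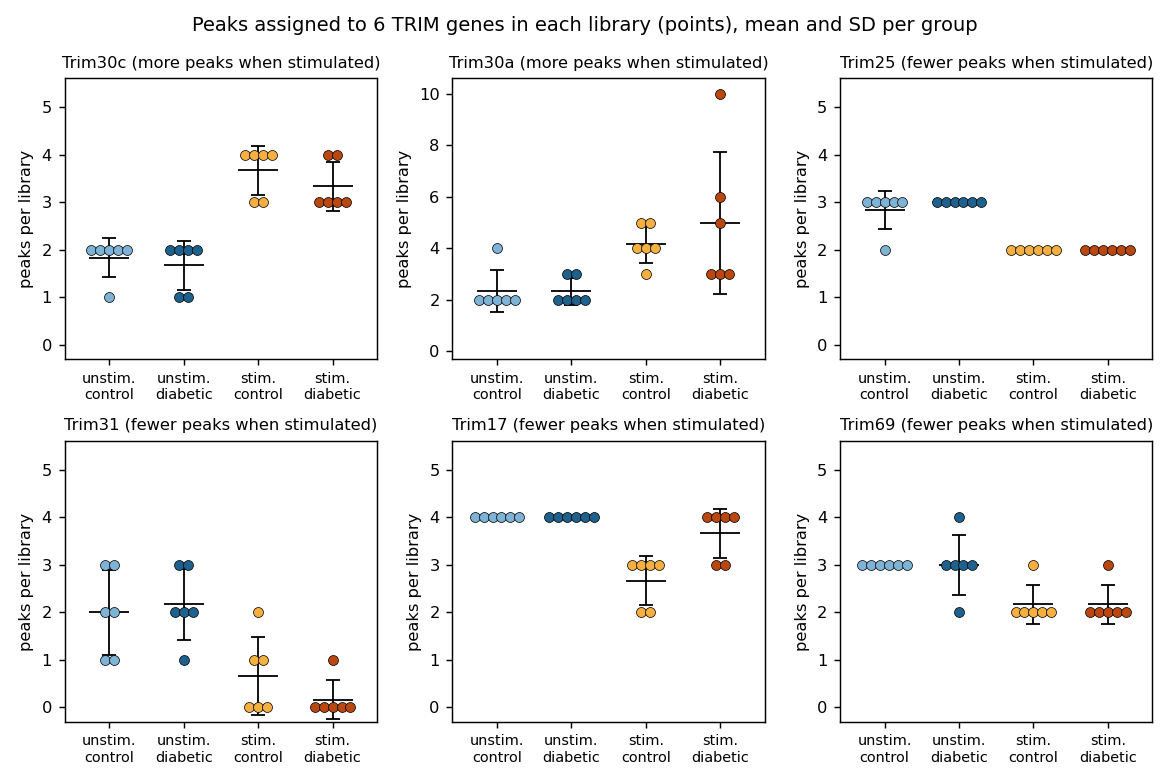
Peaks assigned to Trim30c, Trim30a, Trim25, Trim31, Trim17 and Trim69 in each library (points; vertical axis, peaks per library) by group (horizontal axis), with bars for the mean and SD of 6 libraries. Trim30c has 1 or 2 peaks in unstimulated and 3 or 4 in stimulated libraries, and Trim25 has exactly 2 in all 12 stimulated libraries.

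Regulators of RNA, DNA and Toll-like receptor signalling had 27 tested regions, of which 3 were gained and 3 were lost. Over all tested regions the shares were 9.19% gained and 18.9% lost. The losses were in Trim25, which ubiquitinates the RNA sensor RIG-I, and in Trim31, a ligase for MAVS and NLRP3. The Trim25 region chr11:89006369-89006747, 7167 bp inside the gene, was found in 5 of 6 unstimulated control and 6 of 6 unstimulated diabetic libraries and in no stimulated library (exact test, adjusted p = 0.000303). It was called lost within control mice (exact test, adjusted p = 0.0422) and within diabetic mice (exact test, adjusted p = 0.0243). The Trim25 start region, chr11:88998997-88999992, and a region 4105 bp downstream of the gene were found in all 24 libraries. Median fold enrichment of the start region was 9.41 in unstimulated control and 8.75 in unstimulated diabetic libraries. In stimulated control and stimulated diabetic libraries it was 5.72 and 6.57, a difference that was not tested. Its peaks ranked by −log10 q-value at a median percentile of 85.4 in unstimulated control and 81.7 in unstimulated diabetic lists. In stimulated control and stimulated diabetic lists they ranked at 68.6 and 74. Trim25 had 3 peaks in 11 unstimulated libraries and 2 in the other one, unstimulated control replicate 4, and 2 peaks in each of the 12 stimulated libraries (exact permutation test, adjusted p = 0.00249).

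Trim31 lost both of its intragenic regions. The first, chr17:36903687-36903955, was found in 4 unstimulated control, 5 unstimulated diabetic and no stimulated libraries (exact test, adjusted p = 0.00388). The second, chr17:36904791-36905031, was found in 3 unstimulated control, 4 unstimulated diabetic and no stimulated libraries (exact test, adjusted p = 0.0235). All unstimulated libraries had 1 to 3 Trim31 peaks, while 8 of the 12 stimulated libraries had none, with means of 2.08 and 0.417 (exact permutation test, adjusted p = 0.00803). These were low peaks: among the top 41385 peaks of each library the first region was left in 3 unstimulated libraries and the second in none. No Trim31 region was found in all 24 libraries.

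The gains in this role group were in Trim14, Trim44 and Trim13. Trim14, an adaptor at mitochondrial MAVS that lacks a RING finger, gained chr4:46508218-46508569 inside the gene, found in 1 unstimulated control, 0 unstimulated diabetic and 5 libraries of each stimulated group (exact test, adjusted p = 0.00622). With −log10 q of at least 5 it was found in 4 stimulated and 0 unstimulated libraries and was not called. Trim13 is anchored in the endoplasmic reticulum. Its gained region chr14:61596943-61597344, 1072 bp upstream, was found in 1, 2, 5 and 5 libraries of the unstimulated control, unstimulated diabetic, stimulated control and stimulated diabetic groups (exact test, adjusted p = 0.0489). The call held in 11 of the 24 analyses that left out 1 library.

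Trim44, which has a ubiquitin protease type zinc finger in place of a RING finger, gained chr2:102383914-102384769 inside the gene, 16575 bp from the start (exact test, adjusted p = 0.0235). This region was found in all 12 stimulated libraries, in 5 of 6 unstimulated control libraries and in none of the unstimulated diabetic libraries. It was therefore called gained within diabetic mice (exact test, adjusted p = 0.0243) and could not be tested within control mice, where it was found in all but 1 library. Among the top 41385 peaks of each library, the region was found in 9 stimulated and 0 unstimulated libraries.

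The remaining role groups had 1 to 4 calls each. In the TIF1 chromatin co-regulators, 1 of 9 tested regions was gained and none was lost, against 9.19% and 18.9% of all tested regions. The gained region lay inside Trim33, whose product TIF1γ binds modified histone H3 and acts with Smad proteins, at chr3:103314368-103314580. It was found in 3 stimulated control, 5 stimulated diabetic and no unstimulated libraries (exact test, adjusted p = 0.0101). A region inside the same gene, chr3:103278973-103280598, was found in all 24 libraries. Peaks of the gained region were weak, and with −log10 q of at least 5 it was found in 2 libraries.

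Neural and cytoskeletal members had 17 tested regions, 2 gained and 2 lost, against 9.19% and 18.9% of all tested regions. Trim9 encodes a ligase of axon guidance, and its region chr12:70300635-70301115, 46731 bp from the start, was found in all 12 stimulated libraries and in 1 unstimulated library, unstimulated diabetic replicate 1 (exact test, adjusted p = 0.000303). It was called within control mice (exact test, adjusted p = 0.0173) and not within diabetic mice (exact test, adjusted p = 0.0559). Trim2 gained chr3:84219181-84219576, found in 1, 1, 5 and 4 libraries of the unstimulated control, unstimulated diabetic, stimulated control and stimulated diabetic groups (exact test, adjusted p = 0.0489). That Trim2 call held in 10 of the 24 analyses that left out 1 library.

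Trim67, the closest relative of Trim9, lost a region and gained none. The region chr8:124792208-124792514, 677 bp from the start, was found in 5 unstimulated control, 6 unstimulated diabetic and 1 library of each stimulated group (exact test, adjusted p = 0.00622). Its peaks ranked low, and among the top 41385 peaks of each library it was found in none. Trim36, a microtubule-associated member, lost chr18:46152329-46152812, which lay 12699 bp outside the gene and was found in all 12 unstimulated libraries, 1 stimulated control and 4 stimulated diabetic libraries (exact test, adjusted p = 0.0235). In lists of equal length it was found in 6 unstimulated and 4 stimulated libraries and was no longer called.

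Muscle members had 4 tested regions, with 1 lost and none gained, against 18.9% and 9.19% of all tested regions. Trim55, also called MURF2, is a sarcomere-associated ligase, and its intragenic region chr3:19686161-19686489 was found in 5 unstimulated control, 4 unstimulated diabetic and no stimulated libraries (exact test, adjusted p = 0.00388). Trim55 also had 3 regions found in all 24 libraries, among them chr3:19630037-19630523, 14055 bp outside the gene. The related Trim63 (MURF1) had 1 region, found in every library, and Trim54 (MURF3) had no peak.

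Restricted and remaining members had 2 calls. Erythroid, germline and restricted members had 7 tested regions, with 1 gained and none lost. Growth, autophagy and other members had 9, with 1 lost and none gained. Over all tested regions 9.19% were gained and 18.9% lost. Trim58, an erythroid ligase that acts on dynein, gained chr11:58635795-58636252, 4390 bp upstream, in 5 of 6 libraries of each stimulated group and no unstimulated library (exact test, adjusted p = 0.00128). With −log10 q of at least 5 this region was found in 4 stimulated libraries and was not called. Peaks near the 4 erythroid markers numbered 2 to 6 per unstimulated and 2 to 5 per stimulated library. Their part in the Trim58 result was not tested.

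Trim17, a ligase studied in neuronal cell death, lost chr11:58965053-58965467 inside the gene. It was found in 6 of 6 libraries of both unstimulated groups, in no stimulated control library and in 5 of 6 stimulated diabetic libraries (exact test, adjusted p = 0.0235). Among the top 41385 peaks of each library, the region was found in 12 unstimulated and 2 stimulated libraries. Trim17 peaks numbered 4 in every unstimulated library, 2 or 3 in stimulated control and 3 or 4 in stimulated diabetic libraries (means 4 and 3.17, exact permutation test, adjusted p = 0.0129). Trim69 had fewer peaks after stimulation, with means of 3 and 2.17 (exact permutation test, adjusted p = 0.017), although both of its regions were found in all 24 libraries. Both of them lie where Trim69 overlaps Patl2, so their peaks belong equally to Patl2.

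Within control mice 3 of 36 tested family regions were gained and 4 were lost, against 8.41% and 27.5% of all tested regions (Fisher's exact test, 6 against 6 libraries). Gains were in Trim30c, Trim9 and Trim58, and losses in Trim17, Trim25, Trim36 and Trim55. In diabetic mice 2 of 34 were gained and 1 was lost, against 5.47% and 3.44%. These were the gains in Trim30c and Trim44 and the loss in Trim25. Trim30c and Trim25 were thus the members called in both phenotypes. A call in one phenotype alone does not show a difference between phenotypes. Zelen's test, an exact comparison of the odds ratios of both phenotypes, could not settle it for these members: for all 6 regions called in 1 phenotype alone the totals admit only the observed arrangement, which fixes p at 1. The same held for 13 of the 17 regions called in the pooled comparison, and none of the 17 could reach an unadjusted p under 0.05. Of the 71 family regions in the test, 29 could reach it at their totals, and none of them did (smallest p 0.08, 0 called after adjustment). Among all 25344 regions in the test 0% were called, with 229 at an unadjusted p under 0.05.

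Diabetic and control libraries were also compared directly. Unstimulated, 0 of 31 tested family regions were called, and 1 had an unadjusted p under 0.05 (two-sided Fisher's exact test; 0% of all 8788 regions called, 137 at an unadjusted p under 0.05). It was the Trim44 region, found in 5 of 6 control and 0 of 6 diabetic libraries (exact p = 0.0152, adjusted p = 0.972). After stimulation 0 of 27 were called, and 1 had an unadjusted p under 0.05 (0% of all 9681 regions called, 292 at an unadjusted p under 0.05). That region was in Trim17, found in 0 of 6 stimulated control and 5 of 6 stimulated diabetic libraries (exact p = 0.0152, adjusted p = 0.502). The peaks behind both contrasts ranked low, at a median percentile of 11.9 (Trim44, unstimulated control) and 21.6 (Trim17, stimulated diabetic). Among the top 41385 peaks of each library, the Trim44 region was found in 0 unstimulated and the Trim17 region in 2 stimulated libraries. With −log10 q of at least 5 these numbers were 1 and 2. With 6 libraries against 6, the smallest exact p is 0.00216. Adjusted over 8788 or 9681 regions, with 137 or 292 under 0.05 before adjustment, even that p would not pass the threshold. The 0 calls therefore do not show that the phenotypes are alike.

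TRIM proteins that carry other symbols and the partners of the family were read from the same table. For Pml, Mid1, Mid2 and Mefv, 0 of 13 tested regions were gained and 4 were lost, against 9.19% and 18.9% of all tested regions. Of the losses, 3 were in the microtubule-associated ligase Mid1 and 1 was near Mefv, which encodes pyrin. The region 3877 bp from Mefv was found in 8 unstimulated and no stimulated libraries (exact test, adjusted p = 0.0101). Of 30 partners in nucleic acid sensing, ubiquitin and ISG15 transfer, 28 were matched by symbol, and 11 of their 43 tested regions were gained and 6 lost, beside the same shares of 9.19% and 18.9% over all regions. In Usp18, the ISG15 protease, a gained region was found in 12 stimulated and 0 unstimulated libraries (exact test, adjusted p = 6.17e-05).

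Partners of single TRIM proteins also had calls. Those named are a selection from the 11 gained and 6 lost regions, and of the losses only that in Uba7 is named. Rnf135 (Riplet), the other RIG-I ligase beside Trim25, gained an intragenic region that 10 stimulated and no unstimulated libraries held (exact test, adjusted p = 0.00128). Tab2, a known substrate of Trim30a, had 5 tested regions and gained one, found in 11 and 0 (exact test, adjusted p = 0.000303). Ube2l6, the ISG15 conjugating enzyme, gained one found in 10 and 0 (exact test, adjusted p = 0.00128). Uba7, the ISG15 activating enzyme, lost a region that 5 stimulated and 12 unstimulated libraries held (exact test, adjusted p = 0.0235). Cbx5, which encodes the heterochromatin protein that Trim28 binds, gained one found in 11 and 4 (exact test, adjusted p = 0.0437).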

How the data were processed

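Per the labels' protocols, ATAC-seq libraries were sequenced as 50-bp single reads, and the submitters' processing notes name Trim Galore, Bowtie2 2.2.6, MACS2 2.1.1 and the mm10 build. The deposited narrowPeak lists, 1 per library, hold for each peak the authors' score, fold enrichment (ratio over background), −log10 p-value and −log10 q-value (smallest 1.302), and no read counts. The depth per library is therefore not known here, and only presence of a peak was tested. Replicates were not pooled in the lists.

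Summits were assigned to protein-coding gene bodies of RefSeq GRCm38.p6, ties kept, at most 50 kb away. Regions were merged peaks (overlap of 1 bp) present in at least 2 libraries. A region was at a start when its summit lay within 1000 bp of it. Regions were compared with Fisher's exact test, peaks per gene with an exact permutation test over 924 label orders per phenotype, and phenotypes' responses with Zelen's test, adjusted by Benjamini-Hochberg over the genome (threshold 0.05), in Python 3.11.15 with scipy 1.17.1. The tests were tried on simulated data. Promoter windows hold 250 bases before and 50 after a RefSeq start. Motif searches and alignments (Biopython 1.88) used only the 250 bases before the start. Overlap with regions used the whole window. Starts were listed for 53 members and not used for 15.

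The members and gene lists were chosen with earlier results of these data known. Named genes are all members with a call, with up to 3 regions per role group and direction in full, and up to 3 always-found starts per role group. Alternatives were equal list lengths, a −log10 q of at least 5, summit windows of 100 bp on each side, midpoint assignment, 10 kb reach, adjustment over all regions, a replicate block and leaving out each library. The 6 libraries of a group came from 6 mice, per the series' design. The result for 1 partner gene is not reported here.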

Additional observations from a re-analysis of the deposited data

How the results depend on the processing

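Pooled over phenotypes, 10 family regions were gained and 7 lost, and no result reversed under any alternative. With regions from summit windows 6 were gained, and with adjustment over all regions 5 were gained and 4 lost. Leaving out 1 library gave 6 to 12 gained and 7 to 10 lost; the count of gains moved by over 1.5 times without unstimulated control replicate 1, unstimulated control replicate 2 or unstimulated diabetic replicate 6. Within control mice (3 gained, 4 lost), equal list lengths gave 7 gained, a −log10 q of at least 5 gave 1 gained, and adjustment over all regions gave 0 and 0. Within diabetic mice (2 gained, 1 lost), equal list lengths gave 1 gained and 2 lost, a −log10 q of at least 5 gave 0 gained, and adjustment over all regions gave 0 and 0. By peaks per gene (2 members with more, 4 with fewer), equal list lengths gave 5 members with more. Equal list lengths also moved the share of losses among all called regions of the genome from 67.3% to 54.8%. In the pooled comparison they moved gains from 9.19% to 13.2% of all tested regions and losses from 18.9% to 16%. For the other settings and the comparisons within a phenotype, shares over all regions or genes are not given here. Those counts therefore cannot be set against the genome. The calls in Trim55, Trim9, Trim25 and the Trim30c region found in all stimulated libraries held under all 7 other settings, and those of the second Trim30c region and of the Trim30a region under 2 of 7. The cause of these changes was not tested.

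Replicate numbers are shared between the groups, and each mouse gave both portions, but the labels do not say that equal numbers mark 1 mouse. Same-numbered libraries did not deviate together (correlations -0.0109 to 0.00919 over 12 pairs, own number best in 1 of 12). With the replicate block, 8 family regions were gained and 7 lost when pooled, 1 was lost within control mice, and 1 member had more and 1 fewer peaks per gene. By peaks per gene (exact sign-flip test), Trim30c and Trim25 kept their calls (adjusted p = 0.0496 for each), and 4 members lost theirs: Trim30a and Trim31 (adjusted p = 0.0539 for each), Trim69 (adjusted p = 0.0677) and Trim17 (adjusted p = 0.092).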

Other observations

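The 8 family regions with an adjusted p between 0.05 and 0.1 in the pooled comparison of stimulated with unstimulated libraries did not pass the test. They are given as values chosen after they were seen, with the number of libraries in the order unstimulated control, unstimulated diabetic, stimulated control and stimulated diabetic. At an adjusted p of 0.0895 (Fisher's exact test), a region inside Trim58, chr11:58643391-58643772, was found in 3, 2, 6 and 5 libraries. The Trim8 region chr19:46501723-46502261, also inside its gene, was found in 0, 1, 3 and 4, and a second intragenic Trim44 region, chr2:102373559-102374115, in 4, 3, 0 and 1. The other 5 had an adjusted p of 0.0967 (exact test). A second intragenic Trim14 region, chr4:46535125-46535812, was found in 1, 1, 5 and 3 libraries, and an intragenic Trim11 region, chr11:58982790-58983044, in 4, 1, 0 and 0. For Trim3, a relative of Trim2, chr7:105603281-105603615 lay 1047 bp outside the gene and was found in 4, 6, 0 and 4. Trim36 had an intragenic region, chr18:46173938-46174367, found in 6, 6, 2 and 5, and Trim33 a region 42577 bp outside the gene, chr3:103401212-103401526, found in 2, 3, 0 and 0.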
